A study of Mus musculus with 15 samples.

Results

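Eph receptors and ephrins were followed through RNA-Seq of mouse mammary epithelial cells in which PCBP1 was knocked down and FAM3C or LIFR was then knocked out. The 10 genes were chosen by the CPM of Epha2 in the knockdown dataset, low in control cells and high after the knockdown, together with its relatives, and comprised 6 receptors (Epha1, Epha2, Epha4, Ephb2, Ephb3 and Ephb4) and 4 ephrins (Efna1, Efna5, Efnb1 and Efnb2). They were found by gene name among the 15023 genes listed in the knockdown dataset, where all 10 were present, and among the 13893 genes listed in the knockout dataset, where 9 were present and Ephb2 was not analysed here. Since the genes were picked with the knockdown values in view, those values are given below as a description with no test, while the knockout values were tested.

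All lines derived from NMuMG, a line of normal murine mammary gland epithelial cells. The knockdown dataset held 2 control NMuMG samples and 2 samples with an shRNA against PCBP1 (shPCBP1). The labels list the controls as untreated, while the study's text describes a scrambled shRNA in them. The knockout dataset held 4 shPCBP1 lines (the unaltered line and the CT clones 1 to 3, which received Cas9 without gene-specific guides), 3 FAM3C KO clones, 3 LIFR KO clones and 1 clone with both knockouts (double KO), and every one of these lines carried shPCBP1. Each knockout line grew from a single colony and gave 1 RNA sample, so a difference between groups rests on the spread between clones. PCBP1 is an RNA-binding protein, FAM3C is a secreted cytokine-like protein and LIFR is the receptor of leukemia inhibitory factor.

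Eph receptors are tyrosine kinases that are activated by ephrins on the surface of a neighboring cell. Ephrin-A proteins are held in the membrane by a lipid anchor and ephrin-B proteins cross it, and mainly bind EphA and EphB receptors respectively. Signals run both ways, forward into the cell that bears the receptor and in reverse into the cell that bears the ephrin, and regulate adhesion, repulsion and the sorting of cells into compartments. In mammary epithelium EphA2 and its ligand ephrin-A1 are known for their place at cell contacts, and EphB4 with ephrin-B2 for the ordering of the ducts.

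The promoters of 3 receptors are shown because their transcripts behaved differently in the knockdown: Epha2 and Ephb3 stood far above the controls and Epha4 lay close to them. Each window runs 5′ to 3′ from 250 bases before to 50 bases after the start of the gene, taken from RefSeq on GRCm38.p6. Capitals mark matches on either strand to a STAT site (TTCNNNGAA), an E-box (CANNTG) or a GC box (GGGCGG), which were searched because the study deals with STAT3 and with TWIST1, a factor that binds E-boxes, and because GC boxes are common promoter elements. The Epha2 window lies at chr4:141300971-141301270 on the plus strand, the Ephb3 window at chr16:21204545-21204844 on the plus strand and the Epha4 window at chr1:77515039-77515338 on the minus strand.
Epha2: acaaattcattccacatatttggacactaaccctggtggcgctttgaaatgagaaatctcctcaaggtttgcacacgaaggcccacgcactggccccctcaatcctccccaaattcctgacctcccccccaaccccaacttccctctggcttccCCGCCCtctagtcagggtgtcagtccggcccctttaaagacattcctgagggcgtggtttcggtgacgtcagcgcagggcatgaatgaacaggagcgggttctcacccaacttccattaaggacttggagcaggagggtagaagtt
Ephb3: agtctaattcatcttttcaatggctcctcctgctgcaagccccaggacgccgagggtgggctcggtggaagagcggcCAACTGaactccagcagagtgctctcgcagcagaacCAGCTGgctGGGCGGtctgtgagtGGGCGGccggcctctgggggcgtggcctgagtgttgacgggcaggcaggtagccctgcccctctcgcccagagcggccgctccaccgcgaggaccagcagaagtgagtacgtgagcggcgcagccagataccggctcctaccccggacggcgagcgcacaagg
Epha4: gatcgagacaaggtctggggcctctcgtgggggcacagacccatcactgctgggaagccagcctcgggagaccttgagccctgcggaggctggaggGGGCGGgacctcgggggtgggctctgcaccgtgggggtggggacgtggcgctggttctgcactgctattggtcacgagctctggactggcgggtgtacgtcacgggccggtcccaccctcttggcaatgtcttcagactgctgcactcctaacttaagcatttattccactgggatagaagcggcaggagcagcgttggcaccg

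The Epha2 window held 1 GC box, the Epha4 window 1 GC box, and the Ephb3 window 2 GC boxes and 2 E-boxes. No window of these 3 genes held the STAT letters. Over all 10 genes, which matched 11 windows because Efna1 had 2 starts, 0 windows held a STAT match, 5 an E-box and 9 a GC box. Among all 32851 RefSeq windows of the same design, 8.30% held a STAT match, 72.3% an E-box and 35.7% a GC box. The family's windows were rich in GC, from 54.7% for Epha2 to 73.3% for Efna5, beside a median of 52.7% over all windows. These matches describe letters in the windows and do not identify bound sites.

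PCBP1 transcript, which the shRNA targets, was 287 and 312 CPM in the controls and 14.1 and 14.2 CPM in shPCBP1 (CPM, read counts scaled to a common library total). In the knockout dataset it ranged from 32.9 to 39.5 CPM in 8 libraries and from 19.9 to 22.5 CPM in LIFR KO clones 2 and 3 and the double KO. Fam3c was 26.4 to 42.9 CPM in FAM3C KO and 47.0 to 59.4 CPM in shPCBP1. Lifr was 14.6 to 34.9 CPM in the clones labelled LIFR KO and 25.8 to 40.2 CPM in shPCBP1. It was 10.5 to 19.2 CPM in FAM3C KO, below every shPCBP1 line, and 4.36 CPM in the double KO. The transcript level of Lifr thus did not mark the LIFR KO clones. According to the study's methods, guide pairs cut a short fragment out of the coding sequence. Clones were screened there by PCR and immunoblot, not by transcript level. The depth implied by the step between low values was 16031859 to 46901675 reads per library in the knockout dataset and 53030661 to 56497526 in the knockdown dataset. Those 3 libraries with low Pcbp1 also stood apart by base composition. The GC content of a gene was that of its longest transcript. Across 12581 genes, the log2 difference from the shPCBP1 mean fell with this GC content with Spearman's rho of -0.76, -0.75 and -0.70 in LIFR KO clones 2 and 3 and the double KO, against -0.29 to 0.24 in the other 8 libraries.

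Which members of the family differed between control and PCBP1 knockdown cells was asked first. Epha2, on chromosome 4 of GRCm38 from 141301240 to 141329384, was 1.93 and 2.13 CPM in the controls and 186 and 192 CPM in shPCBP1. The ratio of the means was 93.1, and about 222 reads in the 2 controls together stood against 20771 in the 2 knockdown libraries, so the control level was low but measured. Ephb3 (chromosome 16 from 21204755 to 21223305), an EphB receptor of epithelial compartments, was 0.106 and 0.0567 CPM in the controls and 2.49 and 2.75 CPM in shPCBP1. That 32.2-fold ratio rested on 9 control reads against 288, and the level after knockdown remained far below that of Epha2. Both knockdown libraries lay above both controls for these 2 receptors.

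The remaining receptors moved little or lay near the limit of detection. Epha4 (chromosome 1 from 77367185 to 77515088), a receptor that binds ephrins of both classes, was 65.3 and 64.6 CPM in the controls and 66.2 and 69.6 CPM in shPCBP1, a ratio of 1.05. Ephb4 (chromosome 5 from 137350109 to 137378669), the main receptor of ephrin-B2, was 47.1 and 49.0 CPM in the controls and 33.8 and 36.5 CPM in shPCBP1, a ratio of 0.731. Both knockdown libraries were thus below both controls for Ephb4. Epha1 (chromosome 6 from 42358487 to 42373268) was 0.0178 and 0.0773 CPM in the controls and 0.0364 and 0.0748 CPM in shPCBP1, about 5 and 6 reads per group, and the groups overlapped. Ephb2 (chromosome 4 from 136647539 to 136835988) gave 1 read in all in the controls and 2 in shPCBP1, which is under 3 reads in each group, and no fold is given. Neither of these last 2 receptors passed the filter of a mean of 0.5 CPM over the dataset.

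Among the ephrins, Efnb2 was higher and Efna1 and Efnb1 were lower in the knockdown. Efnb2 (chromosome 8 from 8617434 to 8661242), which encodes the transmembrane ligand of EphB4, was 63.7 and 67.7 CPM in the controls and 105 and 108 CPM in shPCBP1, a ratio of 1.62. Efna5 (chromosome 17 from 62604184 to 62881317), which encodes a lipid-anchored ligand, was 6.35 and 6.81 CPM in the controls and 9.35 and 8.37 CPM in shPCBP1, a ratio of 1.35. For both genes the knockdown libraries lay above the controls. Efna1 (chromosome 3 from 89271733 to 89281142), which encodes the principal ligand of EphA2, was 18.4 and 18.9 CPM in the controls and 11.7 and 11.3 CPM in shPCBP1, a ratio of 0.617. Efnb1 (chromosome X from 99136130 to 99148991), which encodes a transmembrane ligand, was 14.2 and 16.0 CPM in the controls and 9.80 and 10.96 CPM in shPCBP1, a ratio of 0.687. For these 2 ephrins the knockdown libraries lay below the controls.

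**Figure D1:**
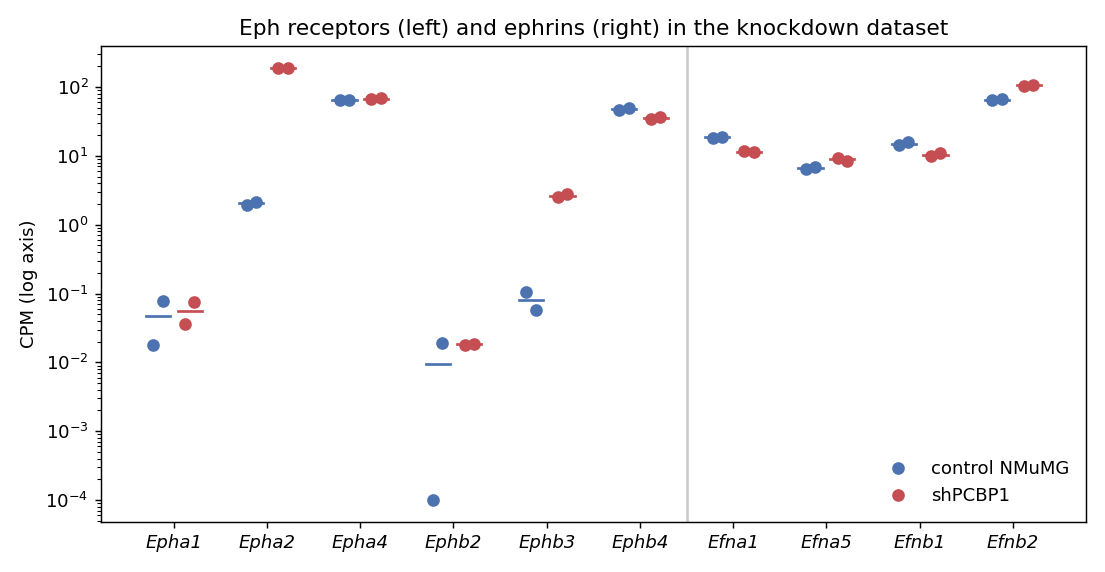
CPM of the 10 genes in each library of the knockdown dataset on a log axis, with receptors left and ephrins right of the vertical line, points for the 2 libraries of each group and short lines for their means. Epha2 rises from about 2 CPM to 186 and 192 CPM and Ephb3 from under 0.2 CPM to 2.49 and 2.75 CPM, while Epha4 stays near 65 CPM; the lowest Ephb2 point, 0.0001 CPM, stands for no reads.

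On the log2(CPM + 0.1) scale, 3 members reached a 1.5-fold higher mean (Epha2, Ephb3 and Efnb2) and 1 a 1.5-fold lower mean (Efna1), where 16.0% of the 11384 genes that passed the filter were higher and 15.1% were lower by as much. The contrast chose these genes, so nothing is read from that count. On this scale the difference was 6.47 for Epha2, 3.92 for Ephb3, 0.70 for Efnb2 and -0.69 for Efna1. Beside them, the summed level of 5 mesenchymal markers was 530 to 551 CPM in the controls and 1300 to 1330 CPM in shPCBP1. That of the 4 listed epithelial markers was 2920 to 2970 and 2770 to 2820 CPM. Keratins made up most of the epithelial sum, with means of 1290 and 1230 CPM for Krt8, 930 and 981 for Krt18 and 485 and 430 for Krt19. Cdh1 was 234 CPM in the controls and 149 CPM in shPCBP1. Listed basal, endothelial and haematopoietic markers summed to at most 0.248, 0.370 and 1.90 CPM in any library of this dataset. The part of these differences in the family's values was not tested. In such bulk samples fewer cells of a type and less RNA per cell cannot be told apart.

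Levels were then compared between genes per kilobase of exon. In the controls Ephb4 (10.4 CPM per kb), Efna1 (10.2), Efnb2 (9.58) and Epha4 (8.06) led the 10 genes, and the libraries of Ephb4 and Efna1 overlapped. Epha2 was seventh there, at 0.434 CPM per kb. In shPCBP1 the order opened with Epha2 (40.4 CPM per kb), followed by Efnb2 (15.6), Epha4 (8.43), Ephb4 (7.58) and Efna1 (6.29), with no overlap between neighbors. Ephb3 remained eighth in both groups, at 0.0123 CPM per kb in the controls, where it overlapped with Epha1, and 0.395 CPM per kb in shPCBP1.

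The make-up of each class changed accordingly. Over the 10 Eph receptor genes listed in this dataset, Epha2 held 2.11 and 2.29% of the summed CPM per kb in the controls and 68.5 and 67.7% in shPCBP1. Ephb4 held 51.8 and 53.2% in the controls and 12.5 and 13% in shPCBP1, and Epha4 held 41.4 and 40.4% and then 14.1 and 14.3%. The receptor sum itself was 19.6 and 19.9 CPM per kb in the controls and 58.2 and 60.5 CPM per kb in shPCBP1. Over the 8 ephrin genes the sum was 32.2 and 34.2 CPM per kb in the controls and 32.1 and 32.2 CPM per kb in shPCBP1. Within it Efnb2 held 28.9% in each control and 47.7 and 49.1% in shPCBP1, and Efna1 held 31.3 and 30.2% and then 19.9 and 19.2%.

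**Figure D2:**
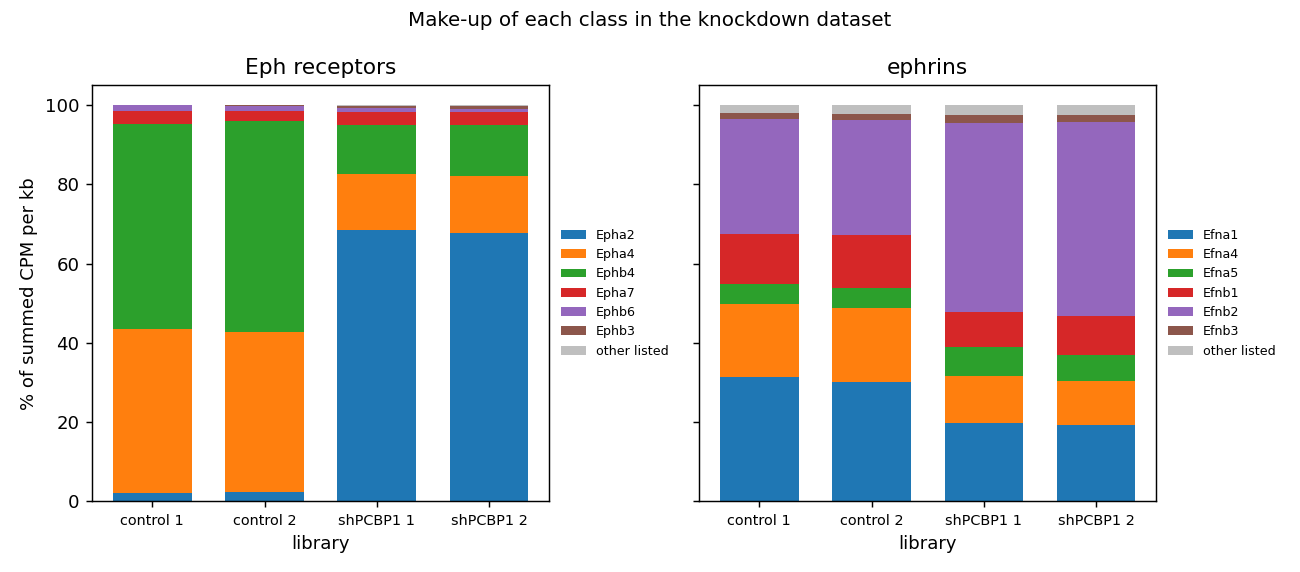
Share of each gene in the summed CPM per kb of the listed Eph receptors (left) and ephrins (right), as stacked percentages for each library of the knockdown dataset. Ephb4 and Epha4 fill most of the receptor bars of the controls and Epha2 fills 67.7 and 68.5% of those of shPCBP1, and Efnb2 takes the largest ephrin share in shPCBP1.

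Other genes of the family, which the choice did not name, were read in the same libraries and are given as values. Epha7, an EphA receptor, was 5.64 ± 0.484 CPM (SD, n = 2) in the controls and 18.5 ± 0.673 CPM in shPCBP1, 3.29-fold. Epha5, also an EphA receptor, gave 0 reads in both controls and 94 in shPCBP1, at least 31.3-fold higher against a floor of 3 reads over the control group. Efna3 was 5.31-fold, Ephb6, a receptor without kinase activity, 2.03-fold and Efnb3 1.17-fold the control mean, while Efna4 stood at 0.597 and Efna2 at 0.650 of it. Ephb1 gave 1 read in the controls and 12 in shPCBP1. A floor of this kind covers counting error only, while each SD is the spread between the 2 libraries of a group.

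Genes outside the family that carry its signals were tested with limma, with Benjamini-Hochberg adjustment over all genes, and were counted as called at an adjusted p under 0.07 with a change of at least 1.5-fold, a rule met by 31.1% of the 11384 genes. Of 33 forward signalling genes 11 were called (7 higher and 4 lower), of 11 partners of ephrin-B reverse signalling 2 (both lower), of 17 genes of shedding and attenuation 2 (1 higher and 1 lower) and of 14 partners of EphA2 in epithelium 7 (3 higher and 4 lower). The list medians were 0.18, -0.02, 0.07 and 0.06 on the log2 scale, beside 0.02 over all genes. Fyn, a Src-family kinase, gave no reads in the controls and 8.12 ± 0.356 CPM (SD, n = 2) after the knockdown, at least 296-fold higher against the same floor. Ngef, an exchange factor bound by EphA receptors, fell from 4.82 ± 0.487 to 0.201 ± 0.0816 CPM. Sh2d3c, an adaptor protein, fell from 1.67 ± 0.287 to 0.5002 ± 0.0277 CPM. Among the partners of EphA2, Rps6ka2, a ribosomal S6 kinase, rose from 3.63 ± 0.00760 to 9.82 ± 0.276 CPM, and Arhgef16, an exchange factor that binds EphA2, fell from 21.5 ± 0.0434 to 9.42 ± 0.439 CPM. Gja1, the gap junction protein connexin 43, rose from 20.3 ± 0.210 to 50.4 ± 4.09 CPM, and Rps6ka1, a kinase that phosphorylates EphA2, fell from 29.8 ± 0.00714 to 14.6 ± 0.790 CPM. Pard6b, a polarity protein bound by ephrin-B1, fell from 44.3 ± 0.395 to 20.4 ± 0.315 CPM. Of the Dishevelled genes, whose products bind ephrin-B, Dvl1 fell from 35.2 ± 0.620 to 22.3 ± 0.583 CPM and Dvl3 had a log2 fold change of 0.45, and Stat3 had 0.36. In the list of shedding and attenuation, Anks1b rose from 1.47 ± 0.270 to 3.73 ± 0.125 CPM. Psen2, a subunit of the protease that cleaves ephrin-B stubs, fell from 4.14 ± 0.0988 to 1.52 ± 0.226 CPM. Psenen, another subunit of it, and Ptprj, a receptor phosphatase, had log2 fold changes of 0.37 and -0.52. The largest limma adjusted p among these genes was 0.00255, for Psenen.

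Fold changes in the knockout dataset are differences of mean log2(CPM + 0.1), which understate the change of low genes. The question there was whether the family differed between shPCBP1 lines and lines that had lost FAM3C or LIFR. This dataset was normalized separately, so its levels are not set against those of the knockdown dataset here. In the 4 shPCBP1 lines Epha2 stood at 109 CPM per kb of exon (100 to 119), followed by Efnb2 (31.4), Epha4 (19.9), Ephb4 (19.6), Efna5 (11.1), Efna1 (8.30), Efnb1 (2.70), Ephb3 (2.00) and Epha1 (1.00). Libraries of Epha4 and Ephb4 overlapped, as did those of Efnb1 and Ephb3, and no other neighbors did. Epha2 made up 65.4 to 71.3% of the summed receptor CPM per kb, and Efnb2 50.1 to 53.5% of the ephrin sum.

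In FAM3C KO no member passed an adjusted p of 0.07 (0 of 9 with limma), where 0.309% of the 12621 genes tested did. At an unadjusted p under 0.05 there were 2 of 9, Ephb3 and Efna5, where 10.2% of all genes were. For Ephb3, the unaltered shPCBP1 line gave 12.2 CPM, CT clones 1 to 3 gave 9.85, 15.4 and 15.8 CPM, and FAM3C KO clones 1 to 3 gave 6.91, 5.999 and 7.19 CPM. All FAM3C KO clones lay below all shPCBP1 lines, with a log2 fold change of -0.96 (SE 0.307, limma adjusted p = 0.276). The adjusted p of Ephb3 was 0.0581 after correction for GC content, 0.0195 with the 2 groups fitted alone and 0.0569 without LIFR KO clone 1, so its call depended on these settings. Efna1 was the other gene whose groups did not overlap, at 11.4 ± 1.61 CPM (SD, n = 3) against 15.2 ± 1.45 CPM (SD, n = 4), with a log2 fold change of -0.42 (SE 0.248, limma adjusted p = 0.649). These 2 of 9 compare with 22.7% of all genes whose groups did not overlap.

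For Epha2, the shPCBP1 lines gave 467 CPM (unaltered) and 502, 504 and 557 CPM (CT clones 1 to 3), which overlap with the 423, 512 and 423 CPM of FAM3C KO clones 1 to 3. Its log2 fold change was -0.17 (SE 0.220, limma adjusted p = 0.899). Efna5 was 39.4, 47.4, 36.4 and 56.1 CPM in shPCBP1 and 56.1, 61.6 and 64.01 CPM in FAM3C KO, the only member with a positive estimate, 0.45 (SE 0.168, limma adjusted p = 0.363). The median log2 fold change of the 9 members was -0.20, beside -0.01 over all genes.

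Ephb3 and Efnb1 were called lower in the LIFR KO clones than in shPCBP1. These were 2 of 9 members, where 6.47% of all genes were called and 5.55% were called lower. Ephb3 was 6.76, 2.45 and 3.04 CPM in LIFR KO clones 1 to 3, each below the lowest shPCBP1 line at 9.85 CPM. The log2 fold change was -1.79 (SE 0.307, limma adjusted p = 0.0323). For Efnb1, the shPCBP1 lines gave 11.2 CPM (unaltered) and 8.89, 9.82 and 7.39 CPM (CT clones 1 to 3), and LIFR KO clones 1 to 3 gave 5.53, 3.20 and 2.53 CPM, again with no overlap. Its log2 fold change was -1.35 (SE 0.246, limma adjusted p = 0.0348). Clone 1 was the highest LIFR KO library for both genes. Those were the 2 of 9 members whose groups did not overlap, beside 17.2% of all genes.

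Ephb4, Efna1, Efnb2 and Epha2 were low in LIFR KO clones 2 and 3 but not in clone 1. Epha2 was 579 CPM in clone 1, above every shPCBP1 line, and 319 and 268 CPM in clones 2 and 3, below every one, giving a log2 fold change of -0.46 (SE 0.220, limma adjusted p = 0.155). Ephb4 was 99.7, 85.3, 95.2 and 83.1 CPM in shPCBP1 and 89.0, 47.7 and 44.0 CPM in LIFR KO, a log2 fold change of -0.66 (SE 0.221, limma adjusted p = 0.0886). Efnb2 was 183, 220, 215 and 242 CPM in shPCBP1 and 200 (199.7), 153 and 146 CPM in LIFR KO, a log2 fold change of -0.38 (SE 0.130, limma adjusted p = 0.0922). Efna1 was 13.04 to 16.2 CPM in shPCBP1 and 14.3, 10.5 and 6.004 CPM in LIFR KO, a log2 fold change of -0.64 (SE 0.248, limma adjusted p = 0.108). Epha4, Efna5 and Epha1, with log2 fold changes of 0.08, 0.04 and -0.05, had overlapping groups. The median over the 9 members was -0.46 and that over all genes -0.16. When the libraries were rescaled by the median ratio, which removes that general shift, Ephb3 and Efnb1 had log2 fold changes of -1.64 and -1.20 (limma adjusted p = 0.0334 and 0.0415) and Epha1 turned from -0.05 to 0.10.

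**Figure D3:**
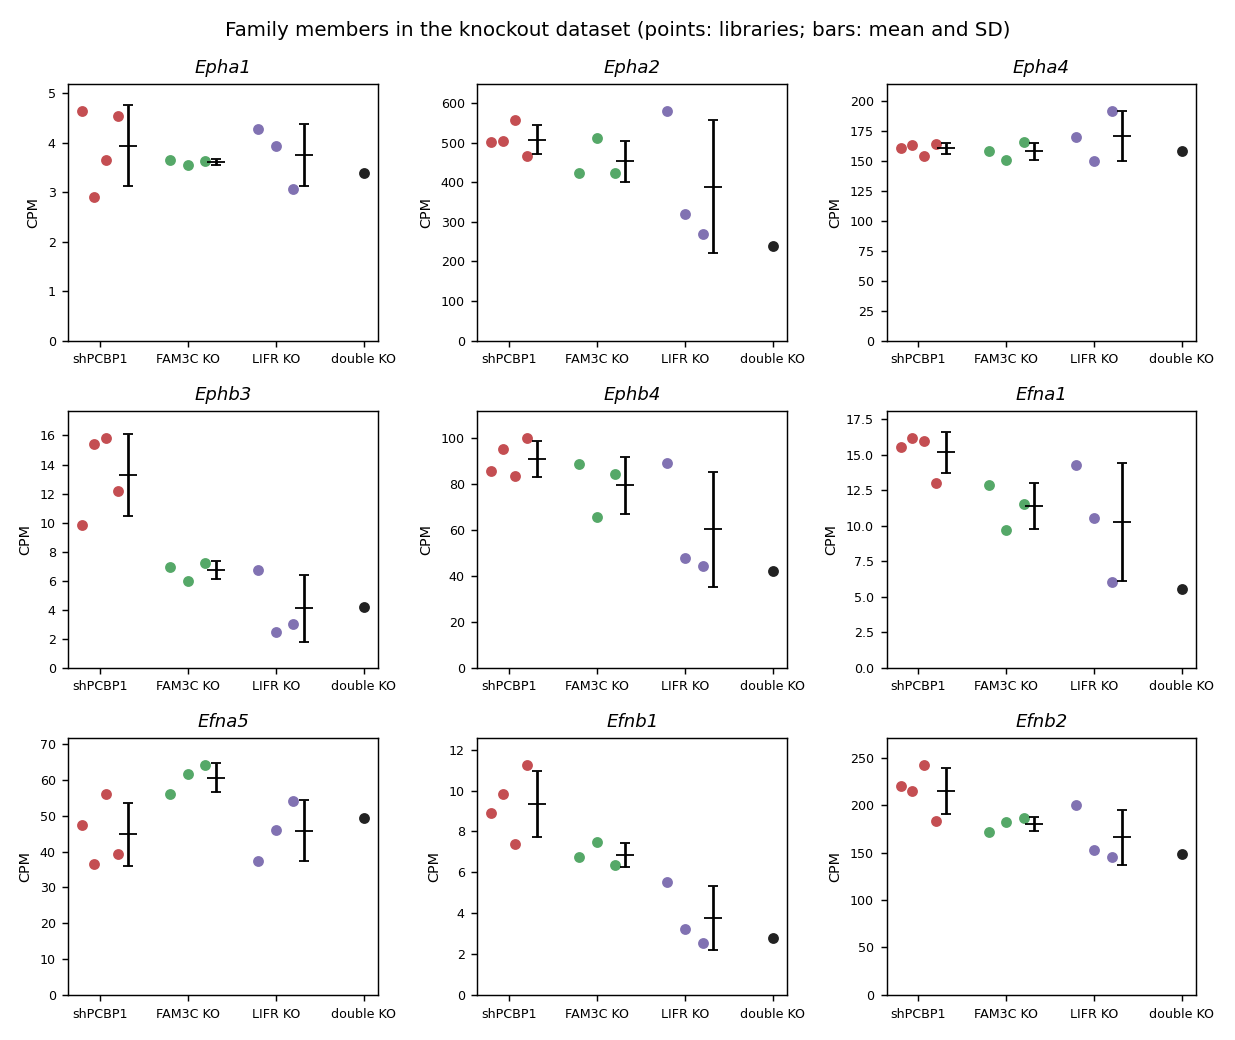
CPM of the 9 genes listed in the knockout dataset, with 1 point per library (CT clones 1 to 3 and then the unaltered line within shPCBP1, and clones 1 to 3 within each knockout) and the mean and SD of each group beside it on axes that start at 0. Ephb3 and Efnb1 are lower in all 3 LIFR KO clones than in any shPCBP1 line, while Epha2, Ephb4 and Efnb2 split clone 1 from clones 2 and 3.

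The base composition of the members is given beside these values because of the shift in clones 2 and 3. The longest transcripts of Ephb4 (58.4% GC), Efnb1 (58.2%), Ephb3 (57.0%) and Epha2 (56.9%) were the richest in GC of the 9 members, and those of Epha4 (45.6%) and Efna5 (44.8%) the poorest. In clone 2 the log2 differences from the shPCBP1 mean were -0.92, -1.50, -2.37 and -0.67 for the first 4, and in clone 3 -1.04, -1.83, -2.07 and -0.92. In clone 1, which carried no such shift, they were -0.02, -0.73, -0.94 and 0.19. After each library was corrected for GC content with a loess curve, Ephb3 had a log2 fold change of -1.26 (SE 0.195, limma adjusted p = 0.0552) and remained called in that fit, and Efnb1 had -0.76 (SE 0.163, limma adjusted p = 0.0936) and did not. Epha2 and Ephb4 then had 0.06 and -0.07. With clone 1 as the only LIFR KO library, which assumes that it varies like the other groups, Ephb3 had -0.94 (SE 0.253, limma adjusted p = 0.135) and Efnb1 -0.73 (SE 0.219, limma adjusted p = 0.180), and 0 of 9 members passed.

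**Figure D4:**
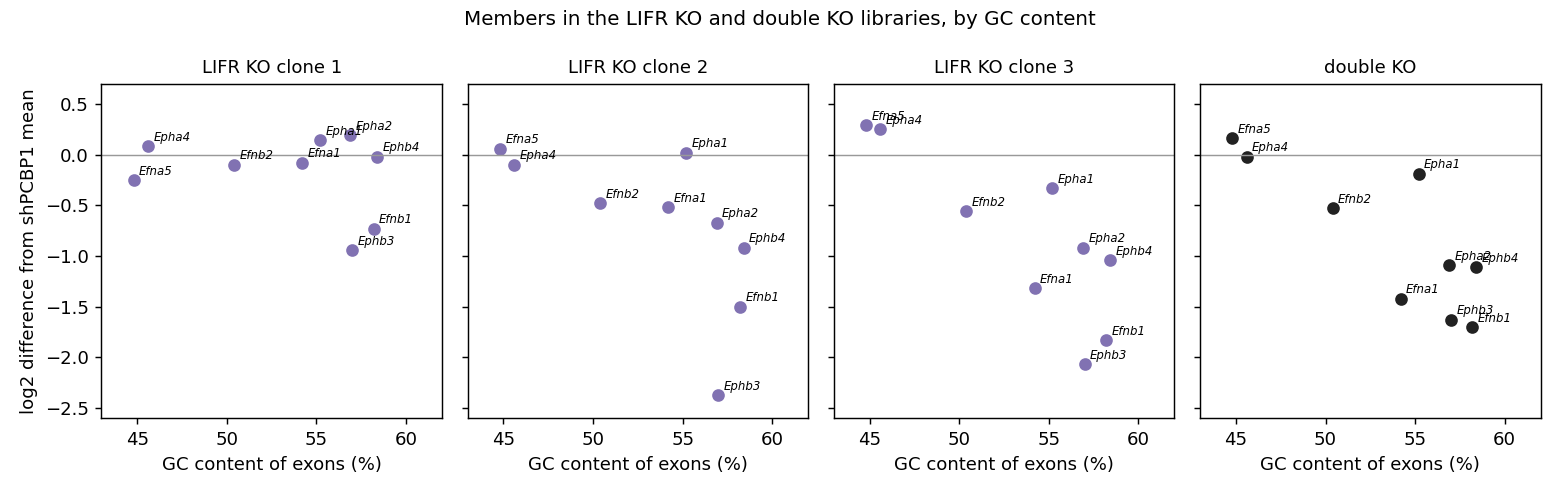
Log2 difference of each member from the shPCBP1 mean, on the log2(CPM + 0.1) scale, against the GC content of the exons of its longest transcript, in the 3 LIFR KO clones and the double KO. In clones 2 and 3 and the double KO Ephb3 and Efnb1 lie lowest and Epha4 and Efna5, the poorest in GC, lie near or above 0, while Epha1 (55.2% GC) stays nearer to 0 than the other GC-rich genes, and in clone 1 only Ephb3 (-0.94) and Efnb1 (-0.73) lie far below 0.

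The calls also depended on the groups in the fit and on single libraries. With shPCBP1 and LIFR KO fitted alone, neither gene was called (limma adjusted p = 0.0848 for Ephb3 and 0.0937 for Efnb1). For Ephb3 the limma adjusted p was 0.0941 without the unaltered shPCBP1 line, 0.114 and 0.0939 without CT clones 2 and 3, and 0.102 without LIFR KO clone 2. For Efnb1 it was 0.102 without the unaltered line, 0.0750, 0.117 and 0.0862 without CT clones 1 to 3, and 0.114 without LIFR KO clone 2. Without LIFR KO clone 1, so with the 2 shifted clones only, 6 of 9 members were called. The limma adjusted p was then 5.33e-05 for Ephb3 and 0.000109 for Efnb1. Over all genes, 816 of 12621 were called with all libraries and up to 7234 when 1 library was left out. Nothing particular to the members is therefore read from that count. With 1 library left out, the log2 fold change kept its sign, from -2.22 to -1.50 for Ephb3 and from -1.66 to -1.11 for Efnb1. Over all alternatives the ranges were wider, from -2.22 to -0.941 for Ephb3 and from -1.66 to -0.685 for Efnb1.

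**Figure D5:**
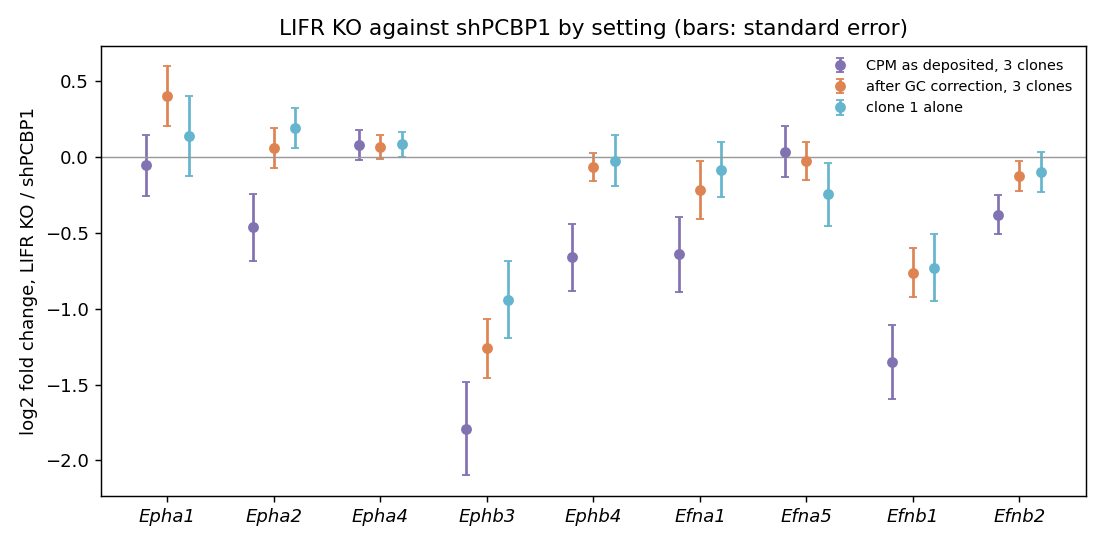
Log2 fold change of each member in LIFR KO against shPCBP1 with its standard error, for the CPM as deposited, after correction for GC content, and with clone 1 as the only LIFR KO library. Ephb3 (-1.79, -1.26 and -0.94) and Efnb1 (-1.35, -0.76 and -0.73) lie below 0 under all 3 settings, while Epha2 moves from -0.46 to 0.06 and 0.19.

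Summed epithelial markers were 2470 to 3170 CPM in shPCBP1, 2000 to 3020 CPM in FAM3C KO and 1210 to 2090 CPM in LIFR KO, and mesenchymal markers 1740 to 1970, 2010 to 2150 and 1220 to 1870 CPM. Means in shPCBP1 and LIFR KO were 690 and 369 CPM for Krt8, 958 and 596 CPM for Krt18, and 820 and 486 CPM for Krt19. For Cdh1 they were 308 and 300 CPM, so the lower epithelial sum in LIFR KO lay in the keratins. LIFR KO clones 2 and 3 carried the GC shift, and its part in these sums was not tested. Of the defining epithelial markers, Cdh1 and keratin genes were abundant in all groups, Cldn7 was under 0.5 CPM in the knockout dataset, and Epcam and Esrp1 were not analysed here. The listed basal, endothelial and haematopoietic markers summed to at most 5.24, 2.24 and 10.9 CPM in any line. The part of the marker differences in the values of Ephb3 and Efnb1 was not tested.

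FAM3C KO and LIFR KO were also compared directly, since the 2 comparisons above share the 4 shPCBP1 lines. Of the 9 members only Efnb1 passed, where 8.28% of all genes did. It was 6.73, 7.48 and 6.34 CPM in FAM3C KO clones 1 to 3 against 5.53, 3.20 and 2.53 CPM in LIFR KO, and the groups did not overlap. The log2 fold change of FAM3C KO over LIFR KO was 0.92 (SE 0.263, limma adjusted p = 0.0676). After correction for GC content the log2 difference was 0.36 and the limma adjusted p 0.256. Without the correction, the adjusted p lay between 0.0851 and 0.242 when any 1 library other than LIFR KO clone 1 was left out. Without LIFR KO clone 1 it was 0.000831. Ephb3 had a log2 difference of 0.83 (SE 0.328, limma adjusted p = 0.134).

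Outside the chosen genes, 8 more family genes were tested and Ephb6, which encodes a receptor without kinase activity, was called in LIFR KO. Its level was 5.30 CPM in the unaltered line, 3.60, 2.79 and 4.12 CPM in CT clones 1 to 3, 2.61, 2.24 and 4.03 CPM in the FAM3C KO clones, and 0.483, 1.497 and 0.600 CPM in the LIFR KO clones. As deposited, all LIFR KO clones were thus below all other lines of those 3 groups. After correction for GC content LIFR KO clone 2, at a log2 difference of -0.35 from the shPCBP1 mean, lay within the shPCBP1 range. In LIFR KO clone 1, 1 read stood for 0.0536 CPM, so few reads lay behind such low values. The log2 fold change of Ephb6 against shPCBP1 was -2.19 (SE 0.369, limma adjusted p = 0.0319), with -2.76 for clone 1 alone. It was -1.54 after correction for GC content (SE 0.464, limma adjusted p = 0.151). Its adjusted p lay between 0.0750 and 0.0941 when any 1 of the 4 shPCBP1 lines was left out.

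Signalling genes around the family were read in the same fits. In FAM3C KO 0 of 32 forward signalling, 0 of 12 reverse signalling, 0 of 17 shedding and attenuation genes and 0 of 14 EphA2 partners passed with limma, and 1, 2, 3 and 2 had an unadjusted p under 0.05, beside the shares of 0.309 and 10.2% over all genes given above. In LIFR KO 3, 1, 3 and 1 genes of these lists were called and all were lower, as were 701 of the 816 genes called in all (6.47% called, 5.55% called lower). Mmp14, a membrane protease that cleaves EphA2, was 29.5 ± 6.60 CPM (SD, n = 3) in LIFR KO and 49.4 ± 3.69 CPM (SD, n = 4) in shPCBP1 (log2 fold change -0.76, limma adjusted p = 0.0355). Rin1, which takes part in EphA receptor endocytosis, was 66.5 ± 15.6 against 97.2 ± 4.05 CPM (-0.57, limma adjusted p = 0.0509). The adaptor Shc1, the exchange factor Vav2, the ephrin-B partner Pick1, Psenen and Rps6ka1 had log2 fold changes of -0.54, -0.65, -0.64, -0.49 and -0.73, with limma adjusted p from 0.0509 to 0.0611. After correction for GC content 0 genes of the 4 lists were called in LIFR KO, and with clone 1 alone 2 forward signalling genes were, Ptk2 and Vav3, which were chosen after their values were seen.

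In the direct comparison 3, 3, 2 and 3 genes of the 4 lists were called and all were higher in FAM3C KO than in LIFR KO, as were 862 of the 1045 genes called in all (8.28% called, 6.83% called higher). For Rin1, FAM3C KO gave 133 ± 6.12 CPM and LIFR KO 66.5 ± 15.6 CPM (SD, n = 3 each, log2 difference 1.02, limma adjusted p = 0.0240), and Gja1 was 124 ± 15.3 and 66.7 ± 30.5 CPM (0.98, limma adjusted p = 0.0555). These 2 were the genes still called after correction for GC content, with 0.49 and 1.14 (limma adjusted p = 0.0658 for each). When clone 1 alone stood for LIFR KO, Rin1 and Gja1 had log2 differences of 0.66 and 1.27. Dvl1, Rgs3, Pick1, Rps6ka2, Rps6ka1, Sh2d3c, Ptprf and Vav2 had log2 differences of 1.15, 1.69, 0.69, 0.97, 0.71, 0.99, 0.74 and 0.59 as deposited. With clone 1 alone, Dvl1, Rgs3, Pick1, Sh2d3c, Ptprf and Vav2 had 0.73, 1.96, 0.46, 0.73, 0.16 and 0.18.

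The double KO, 1 library with no replicate and with the GC shift, is given by its values. Epha2 was 238 CPM, Ephb4 41.9 CPM, Efna1 5.57 CPM, Efnb2 148 CPM, Ephb3 4.17 CPM and Efnb1 2.76 CPM, 6 of 9 members below every shPCBP1 line. Epha4 at 158 CPM, Efna5 at 49.3 CPM and Epha1 at 3.38 CPM lay within the shPCBP1 range. After correction for GC content 5 members lay below the shPCBP1 lines. Their log2 differences were -0.94 for Ephb3, -0.93 for Efnb1, -0.86 for Efna1, -0.41 for Epha2 and -0.33 for Ephb4. Epha1, at 0.42, then lay above those lines. The share of all genes outside the shPCBP1 range in this library was not computed, so nothing is read from these counts.

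Finally, genes whose pattern was most like that of Epha2 were sought over the 11 libraries of the knockout dataset, by Pearson's r of log2(CPM + 0.1). The 5 highest were Mrpl37 (0.991), Arf6, Slc9a8, Ppm1m and Miga2 (0.990 each). These values include the 3 libraries with the GC shift, and over the other 8 libraries they were 0.96, 0.91, 0.93, 0.91 and 0.95. The 5 genes were picked from 12598 over all 11 libraries, these 8 among them. Their values over the 8 are thus no independent check of the likeness, and are not comparable with those of the members below. In the knockdown dataset the log2 differences of the 5 genes were 0.33, 0.24, 0.13, -0.23 and 0.50. Among the members themselves, r with Epha2 was 0.89 for Efna1, 0.88 for Efnb2, 0.87 for Ephb4, 0.85 for Efnb1 and 0.76 for Ephb3 over 11 libraries, and 0.39, 0.65, -0.16, -0.11 and 0.26 over the 8.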

How the data were processed

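RNA was sequenced from rRNA-depleted, directional libraries of 11 lines in the knockout dataset and of 2 lines, with 2 replicates each, in the knockdown dataset. According to the labels and the study's methods, reads were aligned with Bowtie2 to GRCm38 (mm10) and processed in Partek Flow. The deposited values used here are CPM per gene and library, normalized by the authors within each dataset, and the authors' group means and ratio (fold) columns in the deposited tables were not used. In the knockdown dataset a value of 0.0001 CPM stands for no reads. Read numbers were inferred from the step between low values, and a count test was not run because too few values came out whole within 0.1 read.

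Genes whose mean over the dataset reached 0.5 CPM were tested on log2(CPM + 0.1) with limma 3.58.1 (R 4.3.3), with a mean-variance trend and Benjamini-Hochberg adjustment over all genes tested. The 3 replicated knockout groups shared one fit, and an adjusted p under 0.07 was called, the threshold of the study's methods. Each knockout-dataset line gave 1 RNA sample, so p-values there measure the spread between lines. In the knockdown dataset they measure the spread between replicates of a line, which may be technical. The procedure was tested on simulated data with independent noise for each gene and library. Those data held no shift shared by many genes, so that test does not cover the GC shift. Exon lengths, coordinates and the GC content of each gene's longest transcript came from GENCODE M21. As an alternative, each library was corrected for this GC content with a loess curve of span 0.3. Python 3.11.15 and matplotlib 3.10.9 were used for descriptions and plots. The members and the gene lists were chosen with earlier results of these data known. All members, the rest of the family, the targeted genes, the pathway genes called in a knockout comparison without overlap of the groups, in the knockdown the 2 highest and 2 lowest of each pathway list among genes past the threshold with at least 1 CPM in a group, and the 5 genes most like Epha2 were named. Results for some of these pathway genes are not reported here. Alternatives changed the scaling, pseudocount, filter, threshold, groups fitted, replicate block, GC correction and libraries.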

Additional observations from a re-analysis of the deposited data

Results flagged for a closer look

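Efna4, which encodes a lipid-anchored ephrin, was 6.072 CPM in CT clone 2 and 7.261 to 7.297 CPM in the other 3 shPCBP1 lines, a gap of 0.972 of the group's range, above Dixon's critical value for 4 samples. Among 17 family genes checked in this way chance flags about 1 in 20.

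Efnb1 differed between FAM3C KO and LIFR KO by 0.92 on the log2 scale in the direct test (limma adjusted p = 0.0676), with all 3 FAM3C KO clones above all 3 LIFR KO clones. Ephb6 differed by 1.78 in the same test (SE 0.394, limma adjusted p = 0.0411), again without overlap, and its adjusted p was 0.146, 0.0839 and 0.131 without FAM3C KO clones 1 to 3. After correction for GC content the Efnb1 difference was 0.36 and that of Ephb6 was 1.17 (SE 0.496, limma adjusted p = 0.214). Neither gene was called in that fit.

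In the double KO, which entered no test, Epha7 was 102.6 CPM, above the 54.2 to 69.5 CPM of the shPCBP1 lines. The longest transcript of Epha7 holds 41.7% GC, and in the shifted LIFR KO clones 2 and 3 the gene was 58.3 and 109 CPM. After correction for GC content the log2 difference of the double KO from the shPCBP1 mean was 0.44, still above every shPCBP1 line.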

How the results depend on the processing

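In FAM3C KO, 39 genes were called, against 21 with a mean of at least 1 CPM, 237 with correction for GC content, 1048 with the 2 groups fitted alone and 3 to 359 when 1 library was left out, and 0 members became 1 under the GC correction and with the 2 groups alone (0 to 1 with 1 library left out). In LIFR KO, 816 genes became 359 at an adjusted p under 0.05, 458 with median-ratio rescaling, 44 with the GC correction, 35 with the 2 groups alone, 281 with only clone 1 in LIFR KO and 5 to 7234 with 1 library left out. Its 2 members became 1 with the GC correction, 0 with the 2 groups alone and with clone 1 alone, and 0 to 6 with 1 library left out. Between FAM3C KO and LIFR KO, 1045 genes became 587 at an adjusted p under 0.05, 74 with the GC correction, 0 with the 2 groups alone and 1 to 6673 with 1 library left out. The 1 member called there became 0 at an adjusted p under 0.05, with median-ratio rescaling, without a filter, with the GC correction, with the 2 groups alone and with clone 1 alone, and 0 to 5 with 1 library left out. In the knockdown 9123 genes became 3543 when a 1.5-fold change was required as well, and 8115 to 8955 with 1 library left out. The causes of these changes were not tested.

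The clone numbers showed no pairing of the samples. In the knockout dataset deviations of same-numbered samples correlated at -0.181 to 0.154, beside -0.265 to 0.22 for samples with different numbers. In the knockdown the values were 0.051 and -0.051, which mirror each other because each group has 2 libraries. With the replicate block 15, 10 and 0 genes and 0, 0 and 0 members were called in the 3 knockout comparisons (limma adjusted p = 0.150 for Ephb3 and for Efnb1 in LIFR KO), and with the block and the GC correction together 8, 3 and 0 genes, with 0 members in LIFR KO and in FAM3C KO against LIFR KO.

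No member whose direction turned was called as deposited. In LIFR KO, Epha1 turned to 0.10 with rescaling, 0.021 with the block, 0.40 with the GC correction, 0.47 with the block and the GC correction together and 0.14 with clone 1 alone (-0.19 to 0.082 with 1 library left out), and Efna5 to -0.020, -0.024, -0.078 and -0.25 with the block, the GC correction, both and clone 1 alone (-0.094 to 0.18). Epha2 turned to 0.061 with the GC correction, 0.0088 with the block as well and 0.19 with clone 1 alone, and Epha4 ranged from -0.0086 to 0.17 with 1 library left out. In FAM3C KO, Epha1 turned to 0.020 with the block and the GC correction, and Epha4 ranged from -0.058 to 0.0092 with 1 library left out. Between FAM3C KO and LIFR KO, the GC correction (with the block or without it) and clone 1 alone gave -0.068 and -0.15 for Efnb2 (-0.0049 with rescaling), -0.21 and -0.36 for Epha2, -0.11 and -0.18 for Ephb4 and -0.14 and -0.33 for Efna1 (-0.12 to 0.50 with 1 library left out). Ephb3 was -0.017 with clone 1 alone, and Epha1 ranged from -0.18 to 0.055. In the knockdown Epha2 lay at 5.97 to 6.54 and Ephb3 at 1.74 to 5.01 on the log2 scale over all alternatives, among them the ratio of mean CPM, which was chosen after seeing the data.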

Other observations

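Within the receptor sum Epha2 held 64.3 to 72.2% in FAM3C KO, 55.5 to 71.7% in LIFR KO and 55.2% in the double KO, and Epha4 held 12.3 to 14.6%, 12.2 to 23.0% and 21.4%. Epha5, an EphA receptor, varied widely between lines of one group, from 0.808 to 8.57 CPM in shPCBP1, 1.33 to 6.999 CPM in FAM3C KO and 0.772 to 7.15 CPM in LIFR KO.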
